A study of Rattus norvegicus with 4 samples.

Results

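The messenger RNA of 10 genes of extracellular matrix and wound repair was followed in rat kidney sections: Postn, Tnc, Cthrc1, Lum, Vcan, Ltbp2, Fn1, Dcn, Bgn and Sparc. They were taken by gene symbol, and each symbol matched a single row among the 32402 features of every section, so 10 of 10 were found. RNA had been captured with the Visium assay, in which a frozen section of 10 µm lies on a slide of barcoded spots, and each captured molecule is counted once by its unique molecular identifier (UMI). Each spot covers a mixture of neighbouring cells. There were 4 sections of kidney from Sprague-Dawley rats, 1 for each group. The section PAN_LS-FMD came from a rat injected with puromycin aminonucleoside (PAN), a toxin of podocytes, and given LS-FMD, a fasting-mimicking diet low in salt, for 6 cycles. The section PAN came from an injected rat fed ad libitum. For both injected groups the kidney dated from 5 months past the injection and 6 weeks past the end of treatment. The section healthy_LS-FMD came from an uninjected rat taken 72 h into refeeding after 1 cycle of the diet, and the section healthy came from a rat with no treatment. The diet groups therefore differed in cycles and timing as well as in injection, and the labels give the age of none of the rats.

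After removal of spots under 500 UMIs, the sections PAN_LS-FMD, PAN, healthy_LS-FMD and healthy held 2187, 2724, 2593 and 2866 spots, with 34965670, 24924170, 25330872 and 58568499 UMIs in all and a median of 14959, 8482, 8823 and 19531 UMIs per spot. Pairs of sections shared between 1650 and 2279 spot barcodes, which on these slides are positions and not cells. Kidney identity was checked with thick ascending limb markers, which summed to 8440, 6023, 9146 and 8258 UMIs per 1000000 UMIs (CPM) in the same order of sections. With 1 section per group there was no test and no p-value between groups, and every interval below is an exact 95% interval of counting error, which says nothing of the spread between animals. In such bulk spots, fewer cells of a type and less RNA per cell cannot be told apart.

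Matricellular proteins are secreted into the matrix, where they steer adhesion and signalling more than they bear load, and many are scarce in adult kidney and made anew by activated fibroblasts in wounds and scars. Periostin (Postn), tenascin-C (Tnc), Sparc and Cthrc1 belong to this group or are often placed beside it. Lumican (Lum), decorin (Dcn) and biglycan (Bgn) are small leucine-rich proteoglycans that sit on collagen fibrils and govern their spacing, and versican (Vcan) is a large chondroitin sulphate proteoglycan that binds hyaluronan. Fibronectin (Fn1) is the adhesive glycoprotein of the provisional wound matrix, and Ltbp2 is a protein of elastic microfibrils.

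RefSeq promoter windows of the GRCr8 rat assembly were given for 6 of the 10 genes (Postn, Tnc, Lum, Vcan, Ltbp2 and Sparc), and none for Cthrc1, Fn1, Dcn and Bgn. The 250 bases before the start site were searched on both strands for TATAAA (a form of the TATA box), TGANTCA (bound by AP-1), GGAATG (bound by TEAD factors) and the CArG box of serum response factor. TATAAA was found in 2 of the 6 windows against 13.1% of all 27457 windows of that length, GGAATG in 1 of 6 against 11.8%, and TGANTCA and the CArG box in 0 of 6 against 6.36% and 1.5%. The 3 windows with a match are printed 5′ to 3′ on the gene's strand, with the match in capitals, since no other window had one. They are chr2:140677811-140678060 on the plus strand for Postn, with TATAAA between 44 and 39 bases before the start, chr5:82476132-82476381 on the minus strand for Tnc, with TATAAA between 208 and 203 bases before it, and chr10:40038817-40039066 on the minus strand for Sparc, with GGAATG read on the opposite strand (printed as its reverse complement) between 33 and 28 bases before it. A match is a run of letters and not a measured site. Only these exact patterns were searched, so other forms of an element, such as tatataa near the end of the Tnc window, are not marked.
Postn promoter: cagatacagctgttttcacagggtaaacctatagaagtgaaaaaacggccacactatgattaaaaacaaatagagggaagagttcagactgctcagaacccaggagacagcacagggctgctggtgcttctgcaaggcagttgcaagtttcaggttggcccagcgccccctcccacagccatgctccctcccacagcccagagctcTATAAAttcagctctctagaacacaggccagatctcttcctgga
Tnc promoter: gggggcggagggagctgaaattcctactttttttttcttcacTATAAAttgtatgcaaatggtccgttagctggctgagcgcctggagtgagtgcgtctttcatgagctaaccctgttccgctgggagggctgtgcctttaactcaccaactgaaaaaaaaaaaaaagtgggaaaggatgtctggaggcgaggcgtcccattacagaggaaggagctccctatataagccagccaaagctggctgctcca
Sparc promoter: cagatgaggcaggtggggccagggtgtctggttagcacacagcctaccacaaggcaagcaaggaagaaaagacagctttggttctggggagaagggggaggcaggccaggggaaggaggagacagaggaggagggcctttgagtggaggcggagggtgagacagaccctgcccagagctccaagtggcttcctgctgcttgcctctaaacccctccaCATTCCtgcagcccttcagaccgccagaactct

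All 10 genes stood highest in the PAN section, and together they took 0.419% of its UMIs, against 0.086%, 0.112% and 0.0923% in the sections PAN_LS-FMD, healthy_LS-FMD and healthy. Levels are CPM of the section's UMIs. A gene was called higher or lower between 2 sections when it had at least 20 UMIs over both, differed by at least 1.5-fold and had a counting interval of the fold that excluded 1. By this rule 10 of 10 were higher in the PAN section than in the healthy section, where 44.3% of the 13208 features measured were higher and 9.85% lower. The median log2 fold of the 10 was 2.87, beside 0.51 over all features measured. Likewise 10 of 10 were lower in the PAN_LS-FMD section than in the PAN section, where 35.5% of 12850 features were lower and 9.67% higher, with a median log2 fold of -3.70 beside -0.37. The comparisons share sections, so these are not separate pieces of evidence. Scaling by the median of ratios instead of the UMI total shifted the log2 folds by -0.47 and 0.33, and the split over all features became 23.9% higher and 20.3% lower for PAN over healthy and 17.2% higher and 23.1% lower for PAN_LS-FMD over PAN. The counts of 10 of 10 held under it, with folds over the healthy section between 2.59 for Dcn and 67.4 for Postn.

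**Figure D1:**
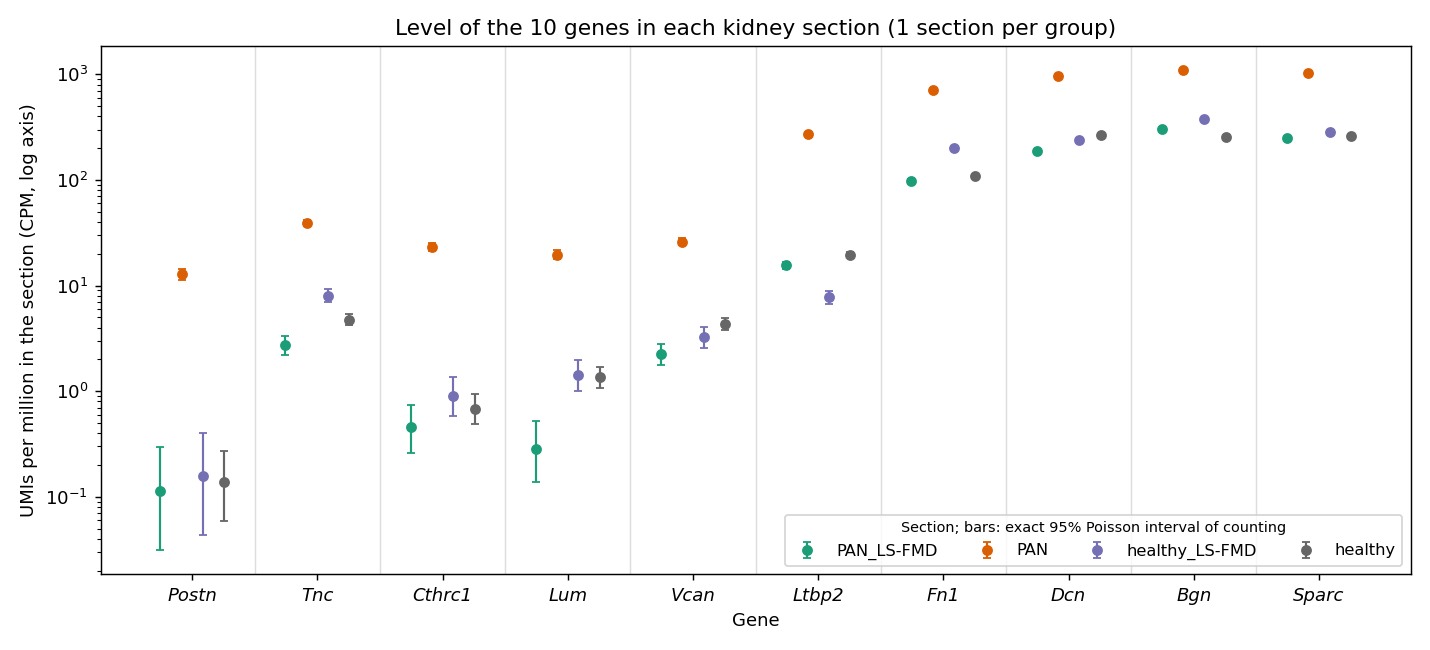
CPM of each gene in each section on a log axis, with the exact 95% Poisson interval of the count as bars (1 section per group). The PAN section lies above the other 3 for every gene, from 12.8 CPM against 0.158 or less for Postn to 1088 CPM against 378 or less for Bgn.

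Of the matricellular genes, Postn, whose protein binds integrins and collagen, was nearly confined to the PAN section. It had 4, 318, 4 and 8 UMIs in the sections PAN_LS-FMD, PAN, healthy_LS-FMD and healthy, or 0.114, 12.8, 0.158 and 0.137 CPM. Only the PAN section was high, and the intervals of the other 3 overlapped. It was 93.4-fold higher in the PAN section than in the healthy section (46.8 to 218) and 112-fold lower in the PAN_LS-FMD section than in the PAN section (43.1 to 412). Outside the PAN section no spot held more than 1 Postn UMI, while a PAN spot held up to 9.

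Tnc, an adhesion-modulating glycoprotein of healing wounds, had 2.72, 39.1, 8.01 and 4.75 CPM in the sections PAN_LS-FMD, PAN, healthy_LS-FMD and healthy. No 2 of the 4 intervals overlapped, and the PAN_LS-FMD section was the lowest. The fold was 8.24 for PAN over healthy (7.21 to 9.45), and the gene was 14.4-fold lower in PAN_LS-FMD than in PAN (11.7 to 18.0). Cthrc1, a secreted glycoprotein of activated fibroblasts, had 0.458, 23.2, 0.908 and 0.683 CPM in the same order. The PAN section alone was high, and among the other 3 the fold of each neighbouring pair had an interval that held 1. The fold between the outermost of these, healthy_LS-FMD and PAN_LS-FMD, was not computed. Cthrc1 was 33.9-fold higher in PAN than in healthy (24.6 to 48.0) and 50.6-fold lower in PAN_LS-FMD than in PAN (30.9 to 89.1).

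Sparc, a collagen-binding protein that helps fibril assembly, was well expressed in every section, with 249, 1039, 283 and 261 CPM in the sections PAN_LS-FMD, PAN, healthy_LS-FMD and healthy. The PAN section stood apart and the intervals of the other 3 lay apart from each other over a narrow range. It was 3.98-fold higher in PAN than in healthy (3.90 to 4.06) and 4.17-fold lower in PAN_LS-FMD than in PAN (4.07 to 4.27).

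Among the proteoglycans, Lum had 0.286, 19.7, 1.42 and 1.35 CPM in the sections PAN_LS-FMD, PAN, healthy_LS-FMD and healthy. The PAN section was high, both uninjected sections overlapped, and the PAN_LS-FMD section, with 10 UMIs, lay below them. Lum was 14.6-fold higher in PAN than in healthy (11.5 to 18.7) and 68.7-fold lower in PAN_LS-FMD than in PAN (37.1 to 144). Its neighbour on rat chromosome 7 is Dcn, as RefSeq lists the protein-coding genes Btg1, Dcn, Lum, Kera and Epyc in that order, and the folds of these neighbours differed. Dcn, whose protein also binds TGF-beta, had 190, 965, 240 and 269 CPM. The PAN section was again alone at the top, and the other 3 had intervals apart from each other. Dcn was 3.59-fold higher in PAN than in healthy (3.52 to 3.66), the smallest fold of the 10, and 5.09-fold lower in PAN_LS-FMD than in PAN (4.95 to 5.23).

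Bgn, which as a free protein can signal through Toll-like receptors, had 302, 1088, 378 and 253 CPM in the sections PAN_LS-FMD, PAN, healthy_LS-FMD and healthy. All 4 intervals lay apart, with the healthy section lowest. Bgn was 4.29-fold higher in PAN than in healthy (4.21 to 4.38) and 3.60-fold lower in PAN_LS-FMD than in PAN (3.52 to 3.69). Vcan had 2.23, 26.0, 3.24 and 4.34 CPM in the same order. The PAN section was far above the rest, and the interval of healthy_LS-FMD overlapped those of PAN_LS-FMD and healthy. The folds of the neighbouring pairs still excluded 1, at 1.34 for healthy over healthy_LS-FMD (1.04 to 1.74) and 1.45 for healthy_LS-FMD over PAN_LS-FMD (1.05 to 2.0). Its fold in PAN was 5.99 over healthy (5.18 to 6.96), while it was 11.7-fold lower in PAN_LS-FMD than in PAN (9.20 to 14.9).

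Fn1 had 98.4, 707, 202 and 109 CPM in the sections PAN_LS-FMD, PAN, healthy_LS-FMD and healthy. The healthy_LS-FMD section held the middle level, with an interval clear of the other 3. Fn1 was 6.51-fold higher in PAN than in healthy (6.32 to 6.70) and 7.19-fold lower in PAN_LS-FMD than in PAN (6.93 to 7.46). Ltbp2, a microfibril protein that shares its family name with the latent TGF-beta binding proteins, had 15.5, 270, 7.74 and 19.6 CPM. Here the healthy_LS-FMD section was the lowest of the 4. Ltbp2 was 13.8-fold higher in PAN than in healthy (12.9 to 14.7) and 17.4-fold lower in PAN_LS-FMD than in PAN (16.0 to 19.0). With the healthy_LS-FMD section as the base instead of the healthy one, the log2 fold of Ltbp2 in PAN became 5.13 and that of Fn1 1.81, against 3.78 and 2.70.

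**Figure D2:**
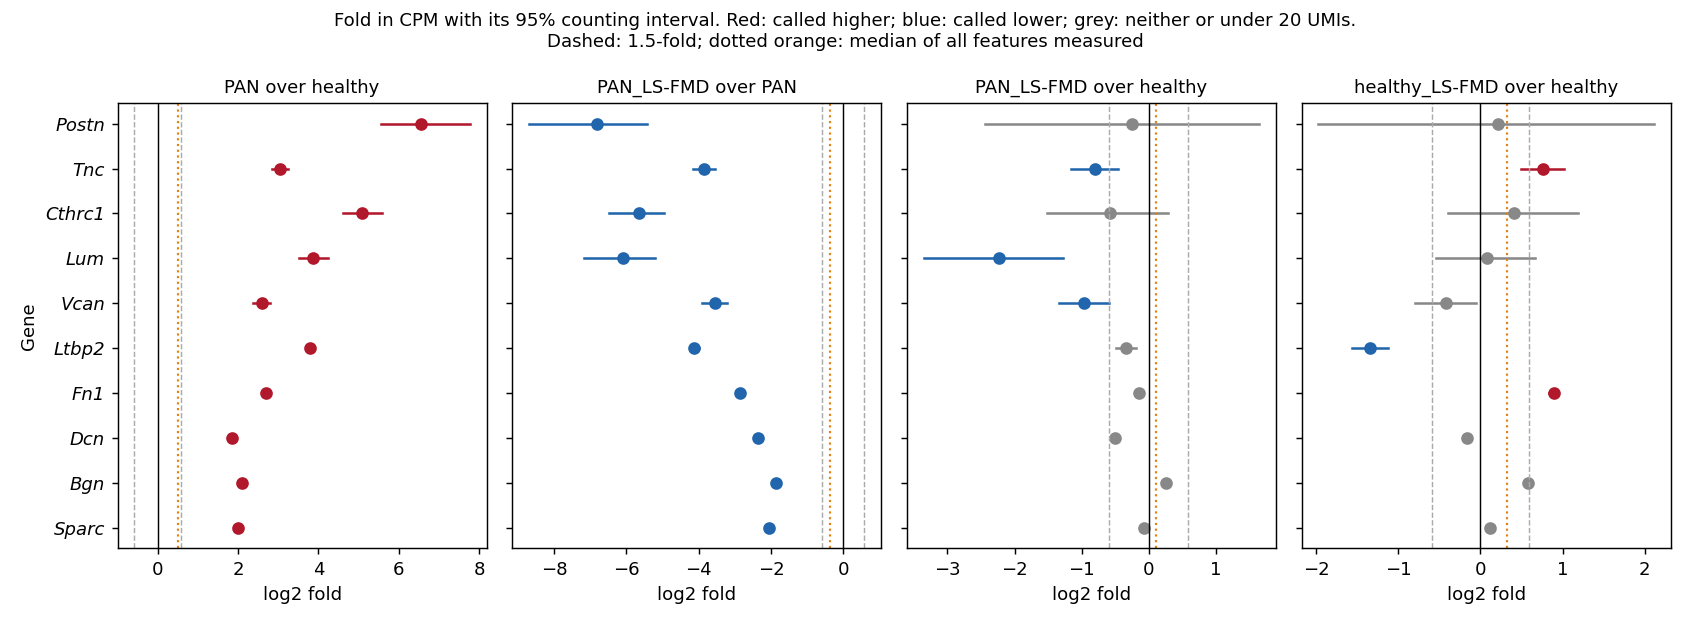
Log2 fold of each gene in the 4 comparisons with its 95% counting interval (red, called higher; blue, called lower; grey, neither or under 20 UMIs), and dotted lines at the median of all features. All 10 points are right of the line in PAN over healthy and left of it in PAN_LS-FMD over PAN. In PAN_LS-FMD over healthy every point but that of Bgn lies left of 0, several of them close to it. In healthy_LS-FMD over healthy the points lie on both sides of 0.

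Set against the healthy section, the PAN_LS-FMD section had 6 of the 9 genes measured on neither side of the threshold. Of the same 9, 0 were higher and 3 were lower (Tnc, Lum and Vcan), where 6.8% of the 12977 features were higher and 4.53% lower. Lum was 4.72-fold lower (2.43 to 10.2), Vcan 1.94-fold lower (1.5 to 2.54) and Tnc 1.75-fold lower (1.38 to 2.23), and the median log2 fold of the 9 was -0.50. Fn1 stood at 0.905 times, Sparc at 0.955 times and Bgn at 1.19 times the healthy level, and Postn had too few UMIs to be measured. With the median of ratios Dcn joined the lower genes at 0.639-fold, which made 4, and the split over all features turned to 4.16% higher and 6.56% lower. Zones were set by the marker lists of whole regions (groups of spots alike in expression), without images or positions. In cortical spots alone none of the genes was called: Lum had 0.505 CPM in PAN_LS-FMD and 1.05 CPM in healthy, with a fold of 0.480 (0.172 to 1.18). In the outer stripe 4 genes were lower in PAN_LS-FMD than in healthy (Vcan at 0.229-fold, Tnc at 0.314-fold, Dcn at 0.586-fold and Ltbp2 at 0.624-fold), and in the medulla 2 were lower (Tnc at 0.378-fold and Vcan at 0.532-fold). In neither of these zones did Lum have enough UMIs to be measured. No share of all features is given here for a zone alone, so the zone counts are not read as a result about the genes. In the healthy section 35 of the 79 Lum UMIs lay in 67 spots of a smooth muscle region led by Actg2, Cnn1 and Myh11. No region of the PAN_LS-FMD section had at least 3 red cell or smooth muscle markers among its 10 leading genes. That rule places whole regions, so it does not show that vessel spots were absent. Red cell markers were the best list of a cortical PAN_LS-FMD region of 147 spots. The part of vessel spots in the Lum result was not tested.

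In uninjected kidney the genes fell on both sides of the threshold. Between healthy_LS-FMD and healthy, 2 of 9 measured were higher (Fn1 and Tnc) and 1 was lower (Ltbp2), where 27.1% of 12967 features were higher and 5.27% lower, so the share of genes higher was near that of all features. Fn1 was 1.86-fold higher (1.79 to 1.93), Tnc 1.69-fold higher (1.4 to 2.03) and Ltbp2 2.54-fold lower (2.18 to 2.97), and the median log2 fold of the 9 was 0.11. With the median of ratios, 0 were higher and 2 lower (Vcan at 0.590-fold and Ltbp2 at 0.311-fold), and the split over all features became 10.5% higher and 12.7% lower, so only the lower level of Ltbp2 was called on both scales. The zones of the 2 sections also differed, with 40.5% of spots placed in medulla in healthy_LS-FMD and 21.3% in healthy. These are shares of spots by marker list of their region and not measured areas of medullary tissue. Within medullary spots Fn1 had 328 CPM in healthy_LS-FMD and 155 CPM in healthy, and Bgn 527 and 300 CPM. Within the outer stripe Fn1 was at 126 and 109 CPM, below the threshold, and within cortex at 134 and 82.4 CPM, a fold of 1.62. Ltbp2 was lower in all 3 zones, with 9.15 CPM in healthy_LS-FMD against 13.7 CPM in healthy cortex, 7.73 against 24.3 CPM in outer stripe and 6.16 against 18.1 CPM in medulla, although the cortical fold of 0.669 fell just short of the threshold.

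To see where in the tissue the genes stood, spots of each section were grouped into regions by all variable genes except these 10, so that the regions owed nothing to them directly. The PAN section had 13 regions, and 6 of the 10 genes were highest in the same one. This region of 321 spots (11.8% of spots and 10.6% of UMIs) was led by Car3, Ankrd1 and Fbln2. Its best marker list was smooth muscle and pericyte, with macrophage next. It was placed in cortex only because a cortical list was the best of its tubule and podocyte lists, so its position in the tissue is not known. The 6 were Postn, Tnc, Cthrc1, Vcan, Ltbp2 and Dcn. Only for Ltbp2 did the interval lie clear of that of the next region. For Postn, Tnc and Vcan the next was a podocyte region of 32 spots, for Cthrc1 a medullary region and for Dcn a smooth muscle and red cell region, and the intervals overlapped. Postn had 52.8 CPM there (44.4 to 62.3), 4.14 times its section level, and 43.7% of all Postn UMIs of the section. Tnc had 116 CPM, 2.97 times its section level, and Ltbp2 708 CPM, 2.62 times. Fn1, Bgn and Sparc were raised there less, to 1.66, 1.44 and 1.81 times their section levels.

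The other 4 genes were highest elsewhere. Lum had 98.1 CPM (79.0 to 120) in the 133 spots led by Actg2, Hba-a1 and Hba-a2, a region of smooth muscle and red cell genes, and 67.2 CPM in the Car3 region. Fn1 and Bgn were highest in a medullary region of 214 spots led by Slc4a11 and Slc14a1, with 1265 and 1841 CPM, although for Fn1 the Car3 region followed closely with 1175 CPM. Postn and Lum were at their lowest in that medullary region, with 2 and 3 UMIs (1.2 and 1.80 CPM). Sparc was highest in the 32 spots whose leading genes included the podocyte genes Nphs1 and Clic3, with 2035 CPM (1878 to 2201), and its interval overlapped that of the Car3 region at 1881 CPM (1829 to 1935). Postn was second highest in the podocyte region, with 39.2 CPM from 12 UMIs (20.3 to 68.5).

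**Figure D3:**
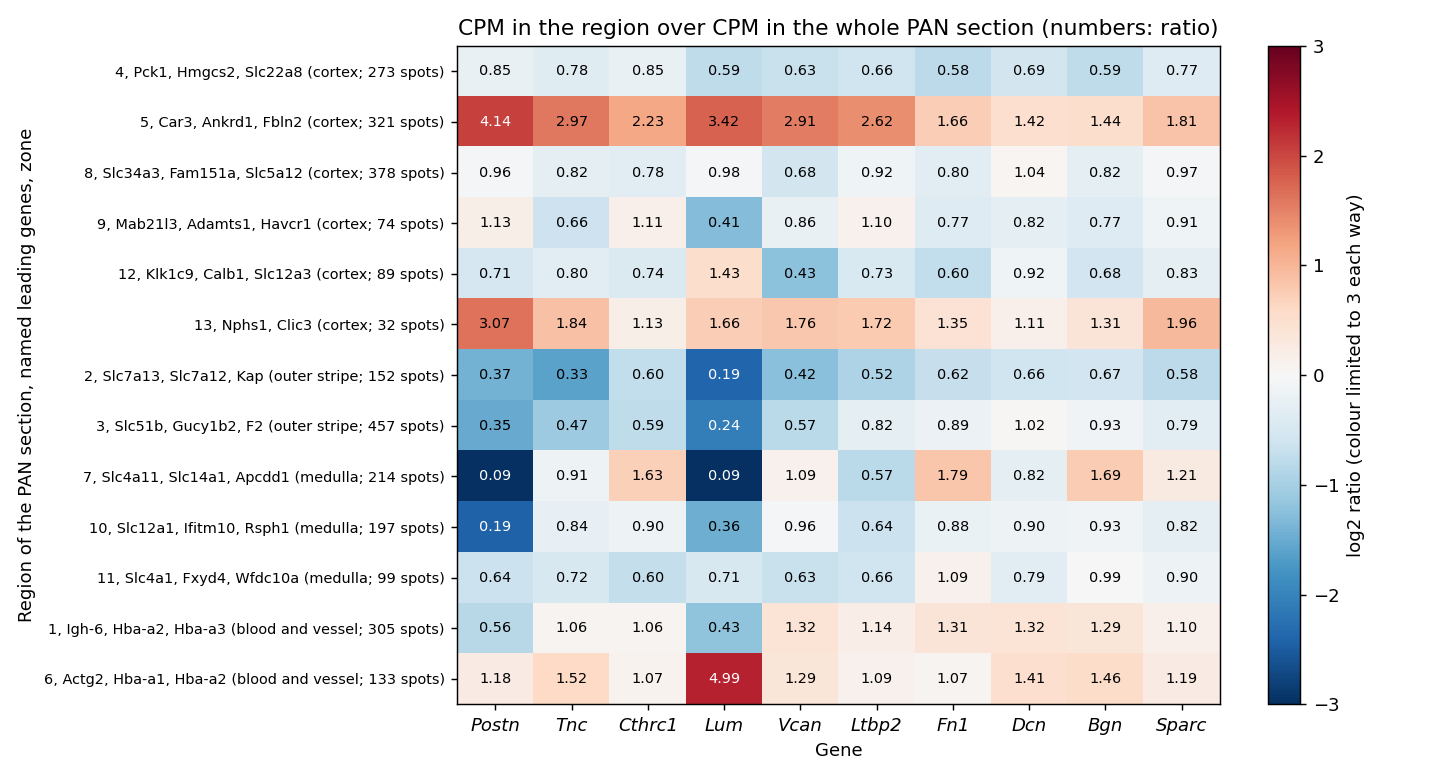
Ratio of the CPM in each of the 13 regions of the PAN section (rows, ordered by zone, with leading genes) to the CPM of the whole section for each gene (columns). The Car3 region is red for every gene, from 1.42 for Dcn to 4.14 for Postn, the Actg2 region is darkest for Lum at 4.99, and the medullary Slc4a11 region joins ratios of 0.09 for Postn and Lum with 1.79 for Fn1.

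Some of these places were the same in the other sections. Sparc was highest in the podocyte region of each of the 4, with 961, 2035, 1137 and 817 CPM in PAN_LS-FMD, PAN, healthy_LS-FMD and healthy. In the 3 sections other than PAN its interval there lay clear of the next region, so the PAN section differed in having a second region at that height. Lum was highest in a vessel region of the PAN (98.1 CPM), healthy_LS-FMD (17.6 CPM) and healthy (31.0 CPM) sections. Fn1 and Bgn were highest in the podocyte region of the PAN_LS-FMD section, at 272 and 600 CPM, and in medullary regions of the healthy_LS-FMD section, at 453 and 725 CPM. For Postn, Cthrc1, Vcan, Ltbp2 and Dcn, each of the 13 PAN regions had a higher CPM than all 41 regions of the other sections. The highest of the 41 rested on 1 UMI for Postn, 3 for Cthrc1 and 5 for Vcan. For Postn and Vcan its interval overlapped that of the lowest PAN region. For Vcan these were 9.75 CPM (3.17 to 22.8) and 10.9 CPM (6.94 to 16.4). For Dcn they were 509 and 636 CPM, a gap that depends on the scale. The median of ratios shifted the log2 folds of PAN over healthy by -0.47, which is more than this gap. A CPM above all 41 was found in 12 of 13 PAN regions for Bgn, 11 for Tnc, 10 for Fn1, 5 for Sparc and 3 for Lum.

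**Figure D4:**
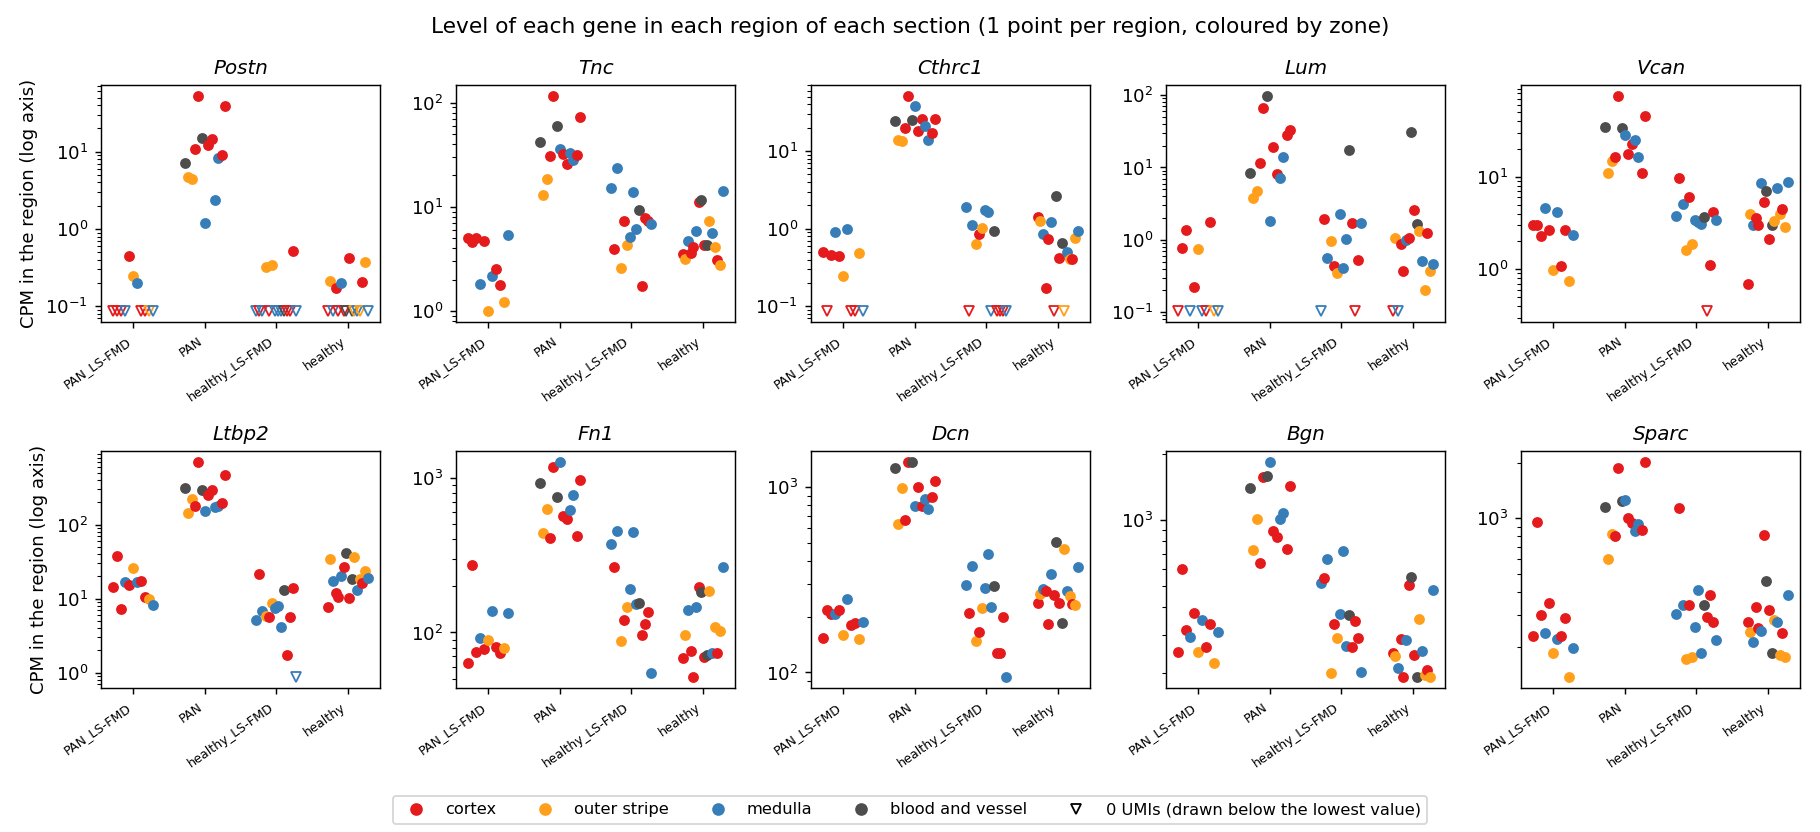
CPM of each gene in each region of each section on log axes, 1 point per region, coloured by zone, with open triangles for regions with 0 UMIs. For Ltbp2 and Dcn the PAN points (lowest 142 and 636 CPM) lie above all others (highest 40.7 and 509 CPM), while single vessel points carry Lum to 31.0 CPM in healthy and podocyte points carry Sparc to 1137 CPM in healthy_LS-FMD.

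Within cortex, outer stripe and medulla alike, 10 of 10 genes were highest in the PAN section, although the order of the other 3 sections could change. Spots placed in blood and vessel were outside these zones, and their share was unequal. It was 0%, 16.1%, 4.20% and 7.78% in PAN_LS-FMD, PAN, healthy_LS-FMD and healthy, so the zones are not matched between sections. In cortex Ltbp2 had 16.1 CPM in PAN_LS-FMD and 13.7 CPM in healthy, with a fold of 1.18 whose interval held 1 (0.979 to 1.41), against 15.5 and 19.6 CPM in the whole sections. In cortical spots Postn had 22.0 CPM in PAN and 0.158 CPM in healthy, Cthrc1 27.0 and 0.421 CPM, and Ltbp2 342 and 13.7 CPM. In medullary spots Postn had 3.09 CPM in PAN from 13 UMIs and 0.0876 CPM in healthy from 1 UMI, too few to be called. Bgn and Sparc had a larger fold over healthy in medulla (4.49 and 3.82) than in cortex (3.67 and 3.46). The other 7 genes measured in both zones had a larger one in cortex, such as Lum with 27.6 in cortex and 10.5 in medulla. The cortical spots of PAN included the Car3 region, placed there by its marker lists. Lum had 67.2 CPM in that region and 29.0 CPM in all cortical PAN spots. Cortical folds without the Car3 region are not given here.

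The share of spots with at least 1 UMI of a gene was also counted. At a fixed depth this share largely follows the level of the gene, so it is not a separate result. With every spot thinned to 2000 UMIs, which left out 1, 36, 13 and 2 spots of PAN_LS-FMD, PAN, healthy_LS-FMD and healthy, at least 1 UMI of Postn was found in 0.0915%, 2.53%, 0.0388% and 0.0349% of the spots in the same order, against 0.183%, 8.55%, 0.154% and 0.279% before thinning. Within the PAN section the thinned share of Postn was 10.2% in the Car3 region (median 8118 UMIs per spot) and 0.658% in an S3 proximal tubule region led by Slc7a13 (median 12796.5 UMIs). Ltbp2 was in 3.34%, 38.3%, 1.24% and 3.56% of thinned spots, and in 20.3%, 80.3%, 6.79% and 28.8% before thinning. Fn1 was in 19.9%, 73.8%, 34.1% and 19.7% of thinned spots, against 72.4%, 97.5%, 75.6% and 80.7% before thinning. For all 10 genes the PAN section had the highest thinned share.

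Over the 2724 PAN spots, the 10 genes were weakly correlated with each other in log-scaled counts. All 45 pairs had a Pearson r above 0, with a median of 0.16 and a range from 0.06 to 0.40, and 11 pairs were above 0.2. The median was 0.03, 0.02 and 0.05 in PAN_LS-FMD, healthy_LS-FMD and healthy, where most of the genes had few UMIs. The highest pairs in PAN were Bgn with Sparc (0.40), Fn1 with Bgn (0.38), Fn1 with Sparc (0.33) and Ltbp2 with Sparc (0.33). Bgn with Sparc also led in PAN_LS-FMD (0.33) and healthy (0.38), and Fn1 with Bgn in healthy_LS-FMD (0.36). The spots of a section share a library and differ in depth, and after thinning to 2000 UMIs the median in PAN was 0.061. In counts this sparse a weak correlation is no finding. Summed over the 13 regions the median r was 0.68, with Fn1 and Bgn at 0.95 and Postn and Bgn at 0.11, a description of 13 points of 1 section, chosen after seeing the data. With region means taken out of the spot values, the median was 0.077.

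**Figure D5:**
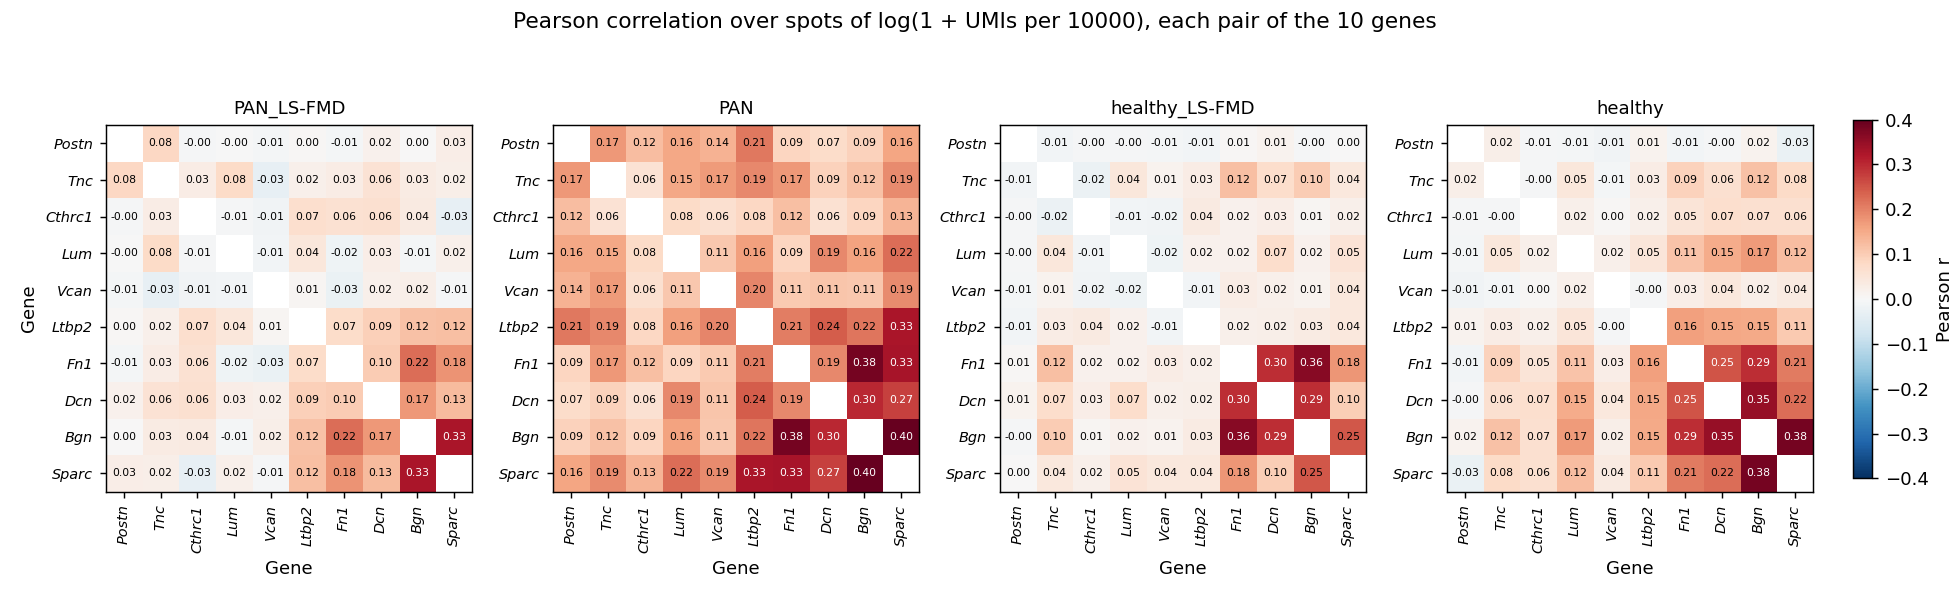
Pearson r over spots for each pair of the 10 genes in the sections PAN_LS-FMD, PAN, healthy_LS-FMD and healthy. All 45 pairs are above 0 in PAN, with Bgn and Sparc at 0.40, while in the other sections colour is mostly limited to Fn1, Dcn, Bgn and Sparc.

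Of 8719 genes with a UMI in at least 5% of PAN spots, the 3 most like each member by r over these spots were named. Mgp (matrix Gla protein, an inhibitor of calcification) was among the 3 for 7 of the 10 members and reached 0.41 with Ltbp2 and 0.39 with Sparc. Postn and Tnc were nearest to Car3, at r of 0.25 each, and Car3 was also the leading gene of the region where both were highest. Lum was nearest to Cnn1 (0.25), Ccl19 (0.25) and Myh11 (0.23), of which Cnn1 and Myh11 are smooth muscle genes. Bgn was nearest to Tagln (0.37), another smooth muscle gene, and Fn1 to S100a6 (0.34). All of these values are weak.

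Lists of genes that build, bind or cut the same matrix were set beside the 10. Fibrillar and related collagens were higher in PAN than in healthy in 13 of 13 measured, with a median log2 fold of 2.92. Col1a1 had 396 CPM in PAN and 43.0 CPM in healthy, and Col3a1 632 and 67.3 CPM. Of the enzymes that process and crosslink collagen, 11 of 12 were higher, among them Lox (8.29-fold) and Plod2 (10.1-fold). Microfibril and elastic fibre genes, the company of Ltbp2, were higher in 13 of 14, such as Fbn1 (7.48-fold) and Fbln1 (15.5-fold). Other matricellular and adhesive glycoproteins were higher in 14 of 19 and lower in 1, with Spp1 (osteopontin, also in the list of injured tubule markers) at 51.6-fold and Cyr61 at 12.4-fold. Other proteoglycans were less uniform, with 10 of 17 higher and 1 lower and a median log2 fold of 0.92. Prelp, a relative of lumican, was 5.32-fold higher.

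Receptors that bind the 10 proteins were higher in PAN than in healthy in 12 of 16 measured, such as Itga11 (6.69-fold) and Cd44 (5.29-fold). Of TGF-beta ligands, receptors and targets, 11 of 11 were higher, including the ligands Tgfb1 (7.58-fold), Tgfb2 (10.8-fold) and Tgfb3 (5.17-fold). Hyaluronan and versican partners were higher in 5 of 10, and proteases that cut the members, with their inhibitors, in 9 of 13, such as Mmp2 (11.1-fold), Adamts4, a protease of versican (8.03-fold), and Timp1 (8.08-fold). In PAN_LS-FMD against PAN the same lists were lower in 13 of 13 collagens, 10 of 12 crosslinking genes, 13 of 13 microfibril genes, 14 of 19 glycoproteins, 10 of 17 proteoglycans, 12 of 16 receptors, 10 of 11 TGF-beta genes, 3 of 7 versican partners and 11 of 13 proteases and inhibitors. Since 44.3% and 35.5% of all features were called in those directions, a share near these is not a result about a list. In PAN_LS-FMD over healthy, 6.8% of all features were higher and 4.53% lower. None of these matrix lists had more than 4 genes called there in either direction, and the 4 were versican partners, lower in 4 of 9. In healthy_LS-FMD over healthy, where 27.1% of features were higher, glycoproteins were higher in 9 of 18 and proteoglycans in 8 of 17.

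Markers of several cell types were higher in PAN along with the 10 genes, and others were lower. Over all features, 44.3% were higher and 9.85% lower in PAN than in healthy, or 23.9% and 20.3% with the median of ratios. A count near these shares is not a result about a cell type. Fibroblast and myofibroblast markers, of which 9 of 10 symbols were in the files, summed to 494, 1847, 563 and 471 CPM in PAN_LS-FMD, PAN, healthy_LS-FMD and healthy, with 8 of 8 measured higher in PAN than in healthy and Fap at 0 in both uninjected sections. Col1a1 and Col3a1 stand in this list and in the collagen list. Smooth muscle and pericyte markers summed to 126, 643, 203 and 157 CPM, with 7 of 7 higher and Notch3 at 0 in all sections but healthy. Macrophage markers summed to 1105, 5326, 1051 and 891 CPM, with 8 of 8 higher. Mesangial markers summed to 145, 230, 165 and 100 CPM, with 3 of 5 higher. B and plasma cell markers summed to 147, 2484, 152 and 62.1 CPM, with 5 of 5 higher and Ms4a1 at 0 outside PAN, T and NK cell markers to 23.5, 111, 17.9 and 19.7 CPM, with 5 of 6 higher, and injured tubule markers to 781, 18952, 2192 and 864 CPM, with 6 of 8 higher. Endothelial markers summed to 511, 602, 719 and 592 CPM, with 2 of 7 higher and 1 lower. Markers of the S3 segment of the proximal tubule summed to 8668, 2241, 7600 and 7680 CPM, with 5 of 6 lower in PAN than in healthy, and those of the S1 and S2 segments to 6579, 4168, 4358 and 6232 CPM, with 3 of 8 lower. Red blood cell markers summed to 1100, 925, 1519 and 8818 CPM, with 5 of 5 lower in PAN than in healthy. Within PAN spots the mean of the 10 genes had r of 0.58 with the collagen list, and with other matrix lists from 0.26 (versican partners) to 0.51 (glycoproteins). It had 0.44 with smooth muscle, 0.37 with fibroblast, 0.37 with macrophage and 0.13 with podocyte markers. With red blood cell markers it had 0.05, with S1 and S2 -0.19 and with S3 -0.30. The fibroblast value differed by gene. It was 0.02 for Postn, 0.04 for Cthrc1, 0.07 for Tnc and Ltbp2, 0.08 for Vcan and 0.11 for Lum. It was 0.27 for Dcn, 0.30 for Sparc, 0.34 for Fn1 and 0.41 for Bgn. The part of these cells in the levels of the 10 genes was not tested.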

How the data were processed

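Visium libraries of 4 rat kidney sections, 1 per group, were analysed. The deposited matrices hold whole-number UMI counts per gene and spot, which the authors made with Space Ranger 1.2.1 (PAN_LS-FMD, PAN and healthy_LS-FMD) and 2.0.1 (healthy), per the file headers. The genome build and annotation are not given in the sources used here, and images and spot coordinates were not used. From these counts, spots under 500 UMIs were left out and UMIs were summed per section, zone or region and scaled to CPM. Levels have exact Poisson intervals and folds exact conditional intervals of 2 Poisson counts, all at 95% and for counting error only. A section with 0 UMIs was given a floor of 3 counts. The call rule was run on simulated counts with known folds.

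Each section was clustered without the 10 genes (2000 variable genes, 30 principal components, 15 neighbours, Leiden resolution 1; scanpy 1.11.5, igraph 0.11.9, Python 3.11.15). Regions were placed in cortex, outer stripe or medulla by their best tubule or podocyte marker list, and in blood and vessel where at least 3 of the 10 leading genes were red cell or smooth muscle markers. This zone rule was set after seeing the data. Doublets were not called in spot data. Genes compared by likeness were the 3 with the highest r for each member, and list examples were up to 4 per list by size of fold with at least 50 UMIs. Of the list symbols, Pecam1, Egf, Meg3, Trbc2 and Pcolce2 matched no feature. The members and lists were chosen with earlier results of these data known. Alternatives were all deposited spots, a minimum of 2000 UMIs per spot, the median of ratios, totals without mitochondrial, haemoglobin and Spp1 UMIs, the mean of spot CPM, a 2-fold threshold, each zone alone, another base section, other correlations and other clusterings. Values of some single genes outside the 10 are not reported here.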

Additional observations from a re-analysis of the deposited data

How the results depend on the processing

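The counts of 10 of 10 genes for PAN over healthy and for PAN_LS-FMD over PAN were 9 in medullary spots alone, where Postn had too few UMIs, and 10 under every other alternative run. No called fold changed sign under any of them. For PAN_LS-FMD over healthy the count of 3 became 1 at a 2-fold threshold, 0 in cortical spots, 2 in medullary spots, and 4 in outer stripe spots and with the median of ratios. For healthy_LS-FMD over healthy the count of 3, both directions together, became 1 at 2-fold (Ltbp2, lower) and 4 with the mean of spot CPM. It became 2 in cortical spots (Tnc and Fn1, higher). It was also 2 in outer stripe spots and with the median of ratios, but there Vcan and Ltbp2 were lower. In medullary spots it was 5, with Tnc, Fn1 and Bgn higher and Vcan and Ltbp2 lower. For single zones no share of all features is given beside these counts, in either comparison. The median r over PAN spots of 0.159 became 0.0606 after thinning to 2000 UMIs, 0.0772 with region means taken out, 0.214 in cortical spots and 0.681 in sums over regions, the last chosen after seeing the data. The number of genes highest in the same PAN region was 6, and 9 at resolution 0.5, in a region of 479 spots with both Car3 and Actg2 among its leading genes, and 6 with the genes kept in the clustering. No paired analysis was possible because each group had 1 section. Precision was limited by counts for Postn, Lum and Cthrc1 outside PAN, and the spread between animals could not be measured. The healthy section was also made with another version of Space Ranger and had the most UMIs, and neither can be told apart from its group.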
